A study of Mus musculus with 11 samples.

Results

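MHC class I antigen presentation was followed here through 10 genes chosen by name from the 47643 gene symbols of the expression table: H2-K1, H2-D1, B2m, Tap1, Tap2, Tapbp, Psmb8, Psmb9, Psmb10 and Nlrc5. All 10 were present in the table and passed the filter on low values, as did 11979 genes in all. RNA came from fibroblasts sorted from mouse skin as live CD140a+ cells negative for CD45, CD11b and F4/80; the sample labels add CD3 to the negative markers, and the study's methods do not. The 11 libraries fell into 4 groups: normal back skin (NS) of wild-type mice (WT NS, n = 3), normal back skin of activin-overexpressing mice (Act NS, n = 3), 5-day excisional wounds of wild-type mice (WT 5dw, n = 3) and 5-day wounds of activin-overexpressing mice (Act 5dw, n = 2). Act mice carried an INHBA transgene, which encodes the activin A subunit, under the keratin 14 promoter, so that keratinocytes and not the sorted fibroblasts were the intended source of activin, and WT mice were their littermates. All mice were females of 9 to 12 weeks with a mixed CD-1 and C57BL/6 background, and each library pooled RNA from 3 mice. Replicate 2 of Act 5dw had been excluded by the authors.

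MHC class I molecules show peptides from inside a cell to CD8 T cells. The proteasome cuts proteins into peptides, the TAP transporter carries them into the endoplasmic reticulum, tapasin holds empty class I molecules at the transporter, and a heavy chain paired with beta-2-microglobulin takes the peptide to the cell surface. Interferons raise this machinery through IRF and STAT factors and through NLRC5, a coactivator that acts on class I promoters together with factors bound at a conserved promoter module, and nearly all nucleated cells, dermal fibroblasts included, carry some class I.

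In the GENCODE M21 annotation of the GRCm38 mouse genome, 7 of the members lay on chromosome 17. These were Tapbp (33915899 to 33929292), H2-K1 (33996017 to 34000347), Psmb9 (34181987 to 34187764), Tap1 (34187553 to 34197225), Psmb8 (34197721 to 34201454), Tap2 (34203527 to 34216321) and H2-D1 (35262730 to 35267499). Psmb9, Tap1, Psmb8 and Tap2 stood side by side within 34.3 kb. B2m lay on chromosome 2 (122147686 to 122153083), and Nlrc5 (94434356 to 94527272) and Psmb10 (105935735 to 105938444) lay on chromosome 8.

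The promoters of the heavy chain genes and of B2m are shown because they carry the module through which class I genes are known to be switched together. RefSeq windows on GRCm38.p6 were found for 8 of the 10 members, all but Tap2 and Nlrc5, and are printed 5′ to 3′ on the coding strand. H2-K1 is chr17:34000352-34000483 on the minus strand, H2-D1 is chr17:35262898-35263029 on the plus strand and B2m is chr2:122147514-122147645 on the plus strand. Capitals mark GGGNNTTCC (an NF-kB-type motif), GAANNGAAA (an IRF-type motif, here read on the other strand) or, in B2m, a repeat of GAAA with 2 bases between. After these come the core of a cyclic AMP response element, TGACG, called the CRE core below, and a CCAAT box read on the other strand.
H2-K1: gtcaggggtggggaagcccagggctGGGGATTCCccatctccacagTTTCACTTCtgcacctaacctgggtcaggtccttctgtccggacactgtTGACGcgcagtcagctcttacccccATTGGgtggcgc
H2-D1: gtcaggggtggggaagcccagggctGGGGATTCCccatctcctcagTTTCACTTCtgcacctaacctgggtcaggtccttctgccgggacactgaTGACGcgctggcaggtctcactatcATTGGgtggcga
B2m: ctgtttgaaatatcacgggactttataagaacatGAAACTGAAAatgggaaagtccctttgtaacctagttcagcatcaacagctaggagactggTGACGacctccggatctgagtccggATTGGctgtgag

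The CRE core and the reversed CCAAT box began 25 bases apart in all 3 of these windows. Among 27025 mouse promoters of 250 bases, 25 (0.0925%) held TGACG and ATTGG at that spacing, and H2-M3, another class I heavy chain gene, was one of them. H2-K1 and H2-D1 also shared the distances of 21 bases from the NF-kB-type to the IRF-type motif and of 49 bases from there to the CRE core. Searched on both strands, GAANNGAAA was in 2 of the 8 member windows and in 6.34% of all promoters, the GAAA repeat in 1 and 3.04%, GGGNNTTCC in 2 and 4.88%, the CRE core in 5 and 17.9%, the CCAAT box in 6 and 34.5%, and TTCNNNGAA, a STAT-type motif, in 1 and 7.18%. The windows of Tap1 and Psmb9 overlap, and the CRE core and CCAAT box of both genes are the same sites, counted once for each gene. Such matches describe letters and are not measured binding sites. The stretch between Tap1 and Psmb9 is shown because these genes start 226 bases apart and run in opposite directions from it. It is chr17:34187331-34187555, printed on the plus strand on which Tap1 runs, with its CCAAT box and CRE core in capitals.
Tap1 and Psmb9: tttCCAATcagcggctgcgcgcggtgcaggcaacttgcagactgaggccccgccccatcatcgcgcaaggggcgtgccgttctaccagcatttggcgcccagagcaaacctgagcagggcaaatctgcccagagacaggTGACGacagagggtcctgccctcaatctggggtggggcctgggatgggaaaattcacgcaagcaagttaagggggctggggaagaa

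Values are RPKM, read numbers corrected for transcript length and for library depth, so levels can be compared between genes. Depth recovered from the smallest steps in the RPKM values ranged from 18649321 to 39702138 mapped reads, and the WT 5dw libraries were the deepest at 38740404 to 39702138. The RNA input was also set higher for wounds than for normal skin, which cannot be told apart from wounding. Differences are log2FC of RPKM + 0.5 from limma with Benjamini-Hochberg adjusted p-values over all tested genes, and a gene was called a DEG at an adjusted p under 0.05. The mouse Inhba row, in which the share of transgene reads was not tested, was at 3.40 to 6.93 RPKM in WT NS and 36.3 to 91.1 in Act NS, and from 15.8 to 23.99 after wounding of WT and from 26.2 to 50.2 after wounding of Act mice, so the genotype groups did not overlap in either tissue. The 10 fibroblast markers summed to 12104 to 17713 RPKM in NS and 22695 to 25942 in 5dw, where Col1a1, Col1a2 and Col3a1 were the 3 called higher in each genotype. Of the other 7, 6 were called lower in WT and 4 in Act, where 48.8% and 36.5% of all genes were lower. After median-ratio scaling 2 of the 10 markers were called lower in WT and 3 in Act. Among those lower without scaling was Pdgfra, which encodes the sort marker CD140a (log2FC -0.63, adjusted p = 0.00250, in WT and -0.80, adjusted p = 0.00182, in Act). After scaling Pdgfra was at -0.18 (adjusted p = 0.269) in WT and -0.44 (adjusted p = 0.0275) in Act. All 10 pan-immune markers stayed below 1 RPKM in every library. The macrophage and dendritic, endothelial, and pericyte and smooth muscle markers summed to 9.37 to 16.3, 21.7 to 39.6 and 11.2 to 22.2 RPKM over all libraries. Of 3, 4 and 5 of them tested, 1, 1 and 1 were called higher and 0, 1 and 2 lower in WT. In Act 0, 2 and 2 were called higher and 1, 1 and 1 lower. The 10 T and NK cell markers summed to 3.99 to 35.6 RPKM in NS and 59.1 to 107 in 5dw, where Cd3e alone reached 105 and 8 of the 10 stayed below 1. The 10 keratinocyte markers were lower in wounds (8 of 10 called in each genotype), with sums of 1016 to 1839 RPKM in WT NS and 1053 to 3869 in Act NS against 108 to 931 in WT 5dw and 233 to 268 in Act 5dw, and their part in the results that follow was not tested.

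Class I presentation genes were lower in fibroblasts from 5-day wounds than in those from normal skin. In WT mice 8 of the 10 fell, with group means going from 1204 to 581 RPKM for B2m and from 516 to 265 for H2-D1, and Tap1 and Tapbp did not pass the test. In Act mice all 10 fell, with means going from 1315 to 386 RPKM for B2m and from 4.94 to 0.459 for Nlrc5. These counts stand against a wide shift of the table: 48.8% of all tested genes were called lower and 9.45% higher in WT, and 36.5% lower and 9.04% higher in Act. The median log2FC over all genes was -0.40 in WT and -0.31 in Act, against -0.77 and -1.43 over the members. After median-ratio scaling, which brings the all-gene median to about 0, 4 of the 10 members were called lower in WT (22.2% of all genes) and 9 of the 10, all but Tapbp, in Act (20.8% of all genes). Without any test, all 5 wound libraries lay below all 6 normal skin libraries for 9 of the 10 members, a position held by 38.9% of all tested genes. In bulk RNA, fewer cells with a transcript and less of it per cell cannot be told apart.

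**Figure D1:**
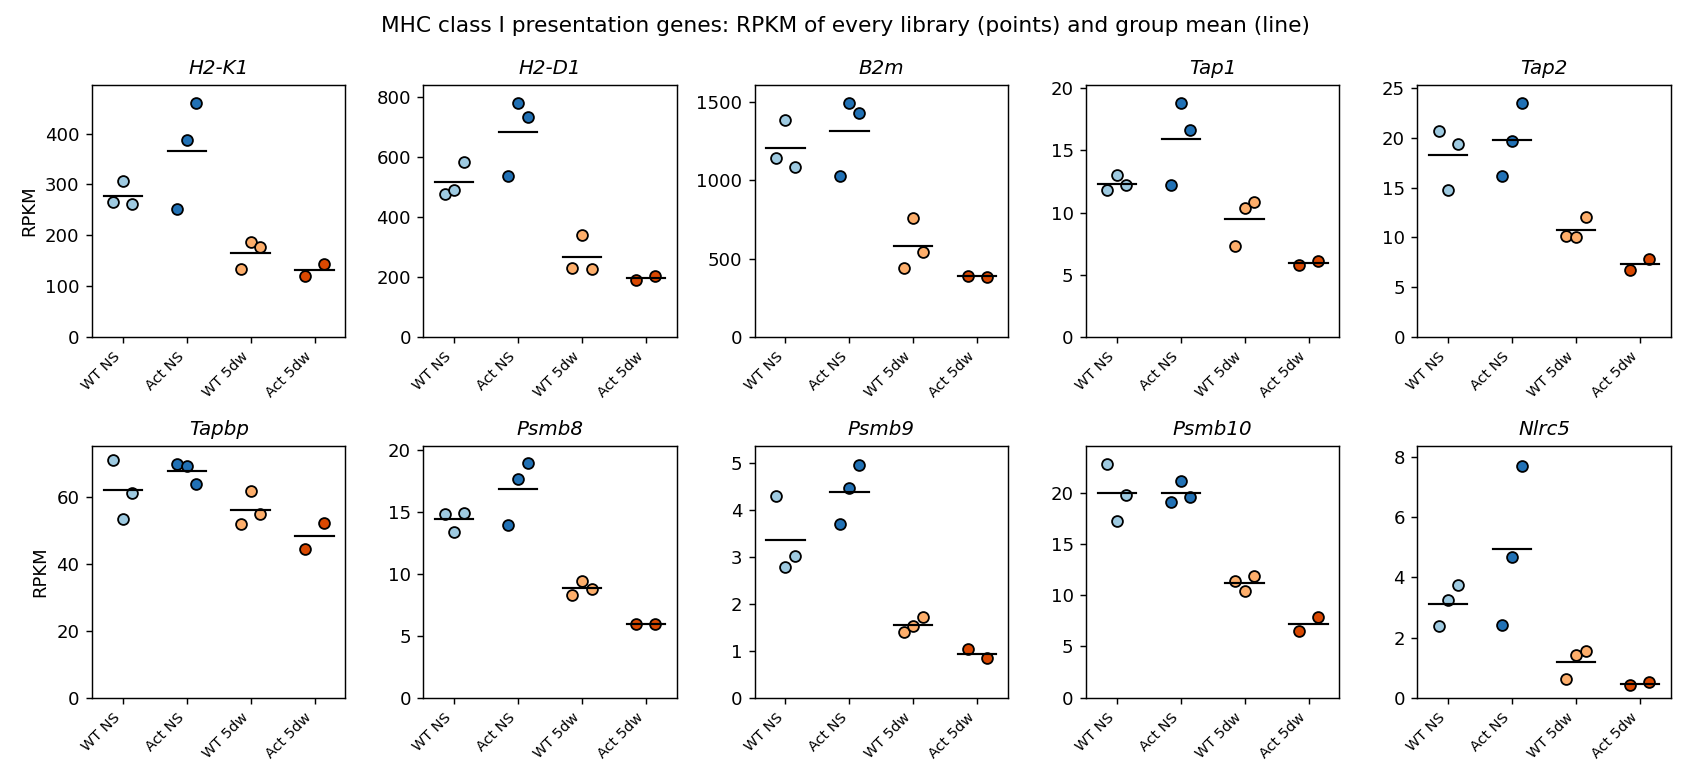
RPKM (vertical axes, linear from 0) of the 10 genes in each of the 11 libraries (points) by group, with the group mean as a line. In 9 of the 10 genes every 5dw library lies below every NS library, and Tapbp is the exception.

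B2m, the light chain shared by all classical class I molecules, was the most abundant member. It stood at 1144, 1387 and 1081 RPKM in WT NS and at 1025, 1491 and 1431 in Act NS. In wounds it stood at 441, 761 and 541 RPKM in WT 5dw and at 388 and 384 in Act 5dw. No wound library reached the lowest normal skin library. The log2FC was -1.08 (SE 0.22, adjusted p = 0.00174) in WT and -1.75 (SE 0.24, adjusted p = 0.000302) in Act. With median-ratio scaling it was -0.62 (adjusted p = 0.0340) and -1.39 (adjusted p = 0.00119).

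H2-D1 and H2-K1 encode the classical heavy chains that hold the peptide. H2-D1 stood at 477, 489 and 581 RPKM in WT NS, at 537, 778 and 733 in Act NS, at 229, 340 and 226 in WT 5dw and at 191 and 202 in Act 5dw. Both wound groups lay below both normal skin groups. Its log2FC was -0.98 (SE 0.20, adjusted p = 0.00169) in WT and -1.78 (SE 0.22, adjusted p = 0.000144) in Act, and -0.52 (adjusted p = 0.0277) and -1.42 (adjusted p = 0.000280) after scaling. H2-K1 stood at 264, 307 and 261 RPKM in WT NS, at 252, 388 and 460 in Act NS, at 134, 187 and 176 in WT 5dw and at 121 and 143 in Act 5dw. Here too normal skin and wounds were apart, although WT 5dw and Act 5dw overlapped. The log2FC of H2-K1 was -0.75 (SE 0.22, adjusted p = 0.0124) in WT, where scaling ended the call (-0.30, adjusted p = 0.236), and -1.43 (SE 0.24, adjusted p = 0.000990) in Act. Leaving out WT 5dw replicate 1 also ended the WT call of H2-K1 (-0.61, adjusted p = 0.0548). These heavy chains share sequence: 26.9% of the 31-base words of H2-D1 and 22.8% of those of H2-K1 occur in other annotated genes, most often in each other, so reads may have been split between them. Of the other members, Tapbp (26.9%), Tap2 (14.3%) and Psmb8 (13.7%) shared words mainly with the gene models Gm19412, Gm15821 and Gm20496, and the annotations of Tap1 and Psmb9 overlap by 212 bases on opposite strands.

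Tap1 and Tap2 form the peptide transporter. Tap1 stood at 11.8, 13.02 and 12.2 RPKM in WT NS, at 12.2, 18.8 and 16.7 in Act NS, at 7.29, 10.3 and 10.8 in WT 5dw and at 5.75 and 6.14 in Act 5dw. The WT groups did not overlap, yet the difference missed the threshold (log2FC -0.38, SE 0.18, adjusted p = 0.0874). It passed when the replicate number was a block (adjusted p = 0.0337) or without Act NS replicate 1 (adjusted p = 0.0432), and turned to 0.057 (adjusted p = 0.793) after scaling. In Act mice Tap1 fell with a log2FC of -1.33 (SE 0.20, adjusted p = 0.000487). Tap2 stood at 20.7, 14.7 and 19.3 RPKM in WT NS, at 16.2, 19.7 and 23.5 in Act NS, at 10.15, 10.03 and 12.1 in WT 5dw and at 6.76 and 7.81 in Act 5dw, with no overlap between normal skin and wounds. Its log2FC was -0.73 (SE 0.17, adjusted p = 0.00386) in WT, lost after scaling (-0.29, adjusted p = 0.121), and -1.37 (SE 0.19, adjusted p = 0.000292) in Act.

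Tapbp encodes tapasin, which bridges the transporter and the empty heavy chain, and moved least. It stood at 71.1, 53.5 and 61.3 RPKM in WT NS, at 69.9, 69.3 and 63.9 in Act NS, at 51.8, 61.8 and 54.8 in WT 5dw and at 44.5 and 52.3 in Act 5dw. The WT groups overlapped (log2FC -0.14, SE 0.14, adjusted p = 0.412), and scaling turned the sign (0.32, adjusted p = 0.0999). In Act the log2FC was -0.48 (SE 0.15, adjusted p = 0.0249), which was not called after scaling (-0.13, adjusted p = 0.560), after quantile normalization (-0.36, adjusted p = 0.144), with the compared groups alone (adjusted p = 0.0700), without Act NS replicate 2 (adjusted p = 0.0612) or without Act 5dw replicate 1 (adjusted p = 0.173).

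Psmb8, Psmb9 and Psmb10 encode the catalytic subunits that turn a constitutive proteasome into an immunoproteasome. Psmb8 stood at 14.9, 13.4 and 14.97 RPKM in WT NS, at 14.0, 17.7 and 18.9 in Act NS, at 8.29, 9.44 and 8.80 in WT 5dw and at 5.93 and 5.92 in Act 5dw. Psmb9 was the lowest of them, at 4.29, 2.77 and 3.02 RPKM in WT NS, 3.69, 4.46 and 4.95 in Act NS, at 1.40, 1.52 and 1.71 in WT 5dw and at 1.02 and 0.843 in Act 5dw. Psmb10 stood at 22.8, 17.2 and 19.8 RPKM in WT NS, at 19.1, 21.2 and 19.5 in Act NS, at 11.4, 10.4 and 11.9 in WT 5dw and at 6.48 and 7.87 in Act 5dw. For each of these genes the order was the same, with both normal skin groups overlapping at the top, WT 5dw below them and Act 5dw at the bottom. The WT log2FC was -0.68 (SE 0.13, adjusted p = 0.00122) for Psmb8, -0.90 (SE 0.16, adjusted p = 0.000935) for Psmb9 and -0.79 (SE 0.13, adjusted p = 0.000557) for Psmb10. In Act it was -1.43 (SE 0.14, adjusted p = 4e-05), -1.76 (SE 0.18, adjusted p = 4.8e-05) and -1.42 (SE 0.15, adjusted p = 4.87e-05). After scaling the WT call of Psmb8 was lost (-0.24, adjusted p = 0.0571), and Psmb9 (-0.53, adjusted p = 0.0158) and Psmb10 (-0.35, adjusted p = 0.0437) kept theirs.

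Nlrc5, the class I coactivator, was the least abundant member in every group but Act NS and showed the widest deviation from a group mean. It stood at 2.40, 3.24 and 3.76 RPKM in WT NS, at 2.43, 4.68 and 7.70 in Act NS, at 0.613, 1.43 and 1.54 in WT 5dw and at 0.408 and 0.510 in Act 5dw, with 64 to 1352 reads recovered per library. Every wound library was below every normal skin library, and the Act NS libraries ranged widely. Its log2FC was -1.13 (SE 0.34, adjusted p = 0.0150) in WT and -2.38 (SE 0.38, adjusted p = 0.000696) in Act. The WT call was lost after scaling (-0.77, adjusted p = 0.0706), after quantile normalization (-0.62, adjusted p = 0.129), without WT NS replicate 3 (adjusted p = 0.0563) and without WT 5dw replicate 1 (adjusted p = 0.0633).

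**Figure D2:**
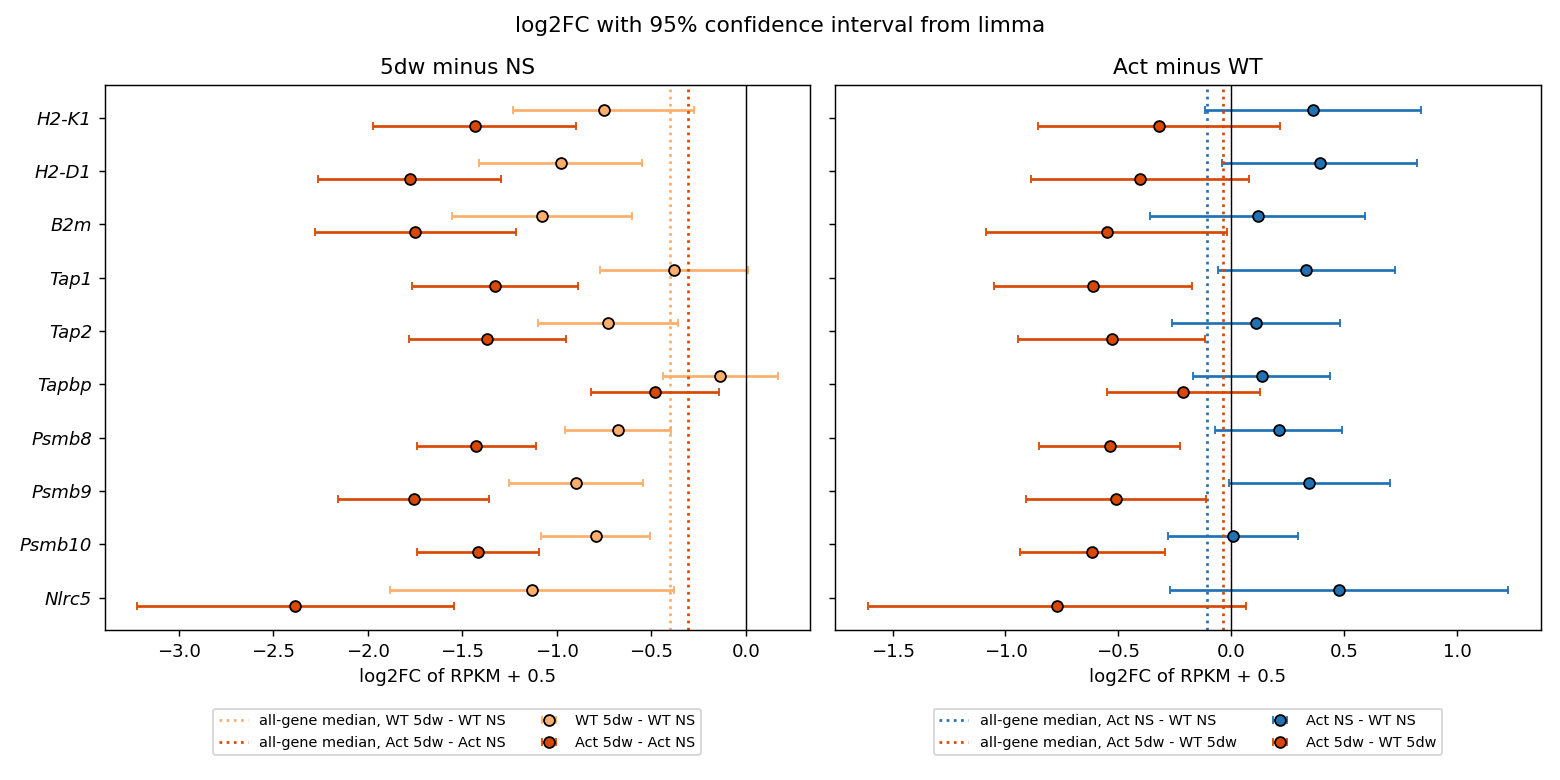
log2FC of RPKM + 0.5 (horizontal axes) with 95% confidence intervals for wounding within each genotype (left) and for genotype within each tissue (right), with the all-gene median of each comparison as a dotted line. Wounding values lie below 0 for all 10 genes, from -0.14 to -1.13 in WT and from -0.48 to -2.38 in Act.

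Immunoproteasome subunits were next set against the constitutive subunits they replace, a ratio within a library that a scaling factor for the whole library leaves as it is. Psmb5, Psmb6 and Psmb7, the constitutive catalytic subunits, had WT log2FC of -0.02 (adjusted p = 0.927), -0.16 (adjusted p = 0.393) and -0.21 (adjusted p = 0.301), and -0.06 (adjusted p = 0.837), -0.24 (adjusted p = 0.276) and -0.12 (adjusted p = 0.622) in Act, none of them called. After median-ratio scaling Psmb5 was called higher in WT (0.43, adjusted p = 0.0284), and Psmb6 (0.29, adjusted p = 0.0947) and Psmb7 (0.24, adjusted p = 0.182) were not. Psmb8 over Psmb5 was 0.573 ± 0.0634 (SD, n = 3) in WT NS, 0.764 ± 0.0355 (SD, n = 3) in Act NS, 0.357 ± 0.0493 (SD, n = 3) in WT 5dw and 0.284 ± 0.0596 (SD, n = 2) in Act 5dw. Psmb9 over Psmb6 was 0.138 ± 0.0401, 0.195 ± 0.00590, 0.0711 ± 0.0116 and 0.0511 ± 0.0176 in the same order. Psmb10 over Psmb7 was 1.45 ± 0.445, 1.71 ± 0.319, 0.928 ± 0.119 and 0.659 ± 0.0229. In each ratio every wound library was below every normal skin library. The mean log2 difference between 5dw and NS was -1.06 for Psmb8 over Psmb5 (-0.69 within WT, -1.44 within Act), -1.45 for Psmb9 over Psmb6 (-0.93 and -1.97) and -0.98 for Psmb10 over Psmb7 (-0.61 and -1.36). A two-sided exact permutation test of the tissue labels within genotype gave p = 0.005 for each of the 3 ratios, adjusted p = 0.005, the smallest that its 200 arrangements allow. With the 5 same-numbered NS and 5dw pairs as blocks, the differences were -0.99, -1.35 and -0.92, each with an exact p = 0.0625, the smallest that 5 pairs allow. Psmb5 shares 71.7% of its 31-base words with other annotated genes, so its level is less certain than that of the others.

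**Figure D3:**
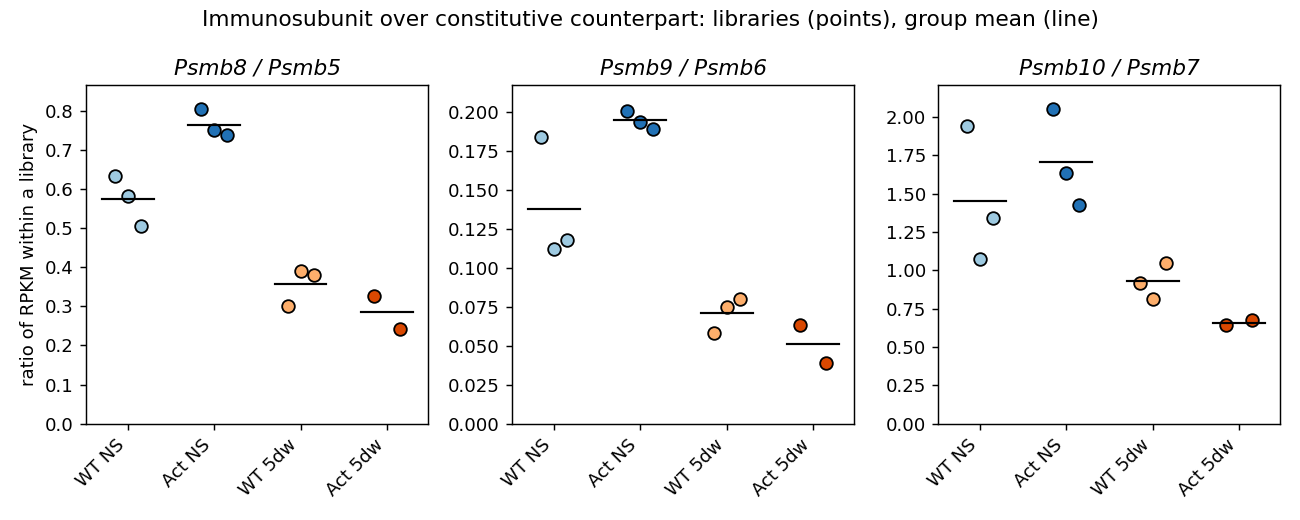
Ratio of the RPKM of each immunoproteasome subunit to its constitutive counterpart (vertical axes, linear from 0) in every library (points) by group, with the group mean as a line. Wound libraries lie below normal skin libraries in all 3 ratios.

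Genotype was then compared within each tissue. In normal skin no member was called between Act and WT (limma, adjusted p from 0.701 to 0.990, 0.0167% of all genes called in either direction), and 0 members, against 824 of all 11979 genes (6.88%), had an unadjusted p under 0.05. All 10 log2FC lay above 0 with a median of 0.27, against -0.11 over all genes, and the libraries of both groups overlapped for every member, as they did for all but 7.98% (Act lower) and 0.993% (Act higher) of all genes. Nlrc5 had the highest value (0.48, 95% interval -0.27 to 1.23) and Psmb10 the lowest (0.01, 95% interval -0.28 to 0.29). Over the alternative settings Nlrc5 ran from 0.12 to 0.86 and H2-D1 from 0.29 to 0.56, so Nlrc5 was not highest under every setting. In wounds no member was called either (limma, 0.0334% of all genes called), although 6 of the 10, against 386 of all 11979 genes, had an unadjusted p under 0.05. All 10 log2FC lay below 0 with a median of -0.53, against -0.04 over all genes. For 8 of the members, all but H2-K1 and Tapbp, both Act 5dw libraries lay below the 3 WT 5dw libraries, a position held by 15.2% of all genes. Psmb10 (-0.62, SE 0.15, adjusted p = 0.542) and Psmb8 (-0.54, SE 0.14, adjusted p = 0.663) came closest to the threshold.

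The effect of wounding was tested for a difference between genotypes with the interaction term. No member and no gene was called (limma, 0% of all genes), and 7 members and 400 genes of all had an unadjusted p under 0.05. The interaction lay below 0 for all 10 members with a median of -0.72, against 0.08 over all genes. Tap1 (-0.95, 95% interval -1.54 to -0.36, adjusted p = 0.830) and Psmb8 (-0.75, 95% interval -1.17 to -0.33, adjusted p = 0.726) were among the members with intervals below 0. These comparisons share libraries with one another and are not separate evidence.

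Within groups the members moved together in part. On log2 values centred on the group means of the 11 libraries, the median Pearson r over the 45 pairs of members was 0.48, from -0.27 for B2m and Psmb10 to 0.90 for H2-K1 and Nlrc5, and 40 pairs were above 0. All genes of a library share its depth and its RNA, so these values are descriptions. They are not set against values for pairs of other genes. By the same centred values, no member was among the 3 genes most like any other member. Act NS replicate 1 lay low, with a median member deviation of -0.30 and 1 of the 10 members above its group mean. Its RPKM also had the lowest sum of the 11 libraries, 225686 against 275461 and 272835 in its group, and its median-ratio factor was 0.972 against 1.14 and 1.15. The keratinocyte markers summed to 1053 RPKM in that library, 2470 in Act NS replicate 2 and 3869 in Act NS replicate 3, where the median member deviations were 0.083 and 0.16, and the part of these quantities in the deviations was not tested. WT 5dw replicate 1 lay low as well (-0.15, 1 of 10). Tapbp and Psmb10 followed the others least, with a median r of 0.20 and 0.09. By the same centred values the genes most like H2-K1 were Gm26825 (r = 0.98), Atf4 (0.96) and Ppp2cb (0.96), those most like B2m were Has1 (0.96), Gch1 (0.96) and Stk19 (0.95), and those most like Nlrc5 were Ric8b (0.98), Krt79 (0.98) and Ehd4 (0.97).

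**Figure D4:**
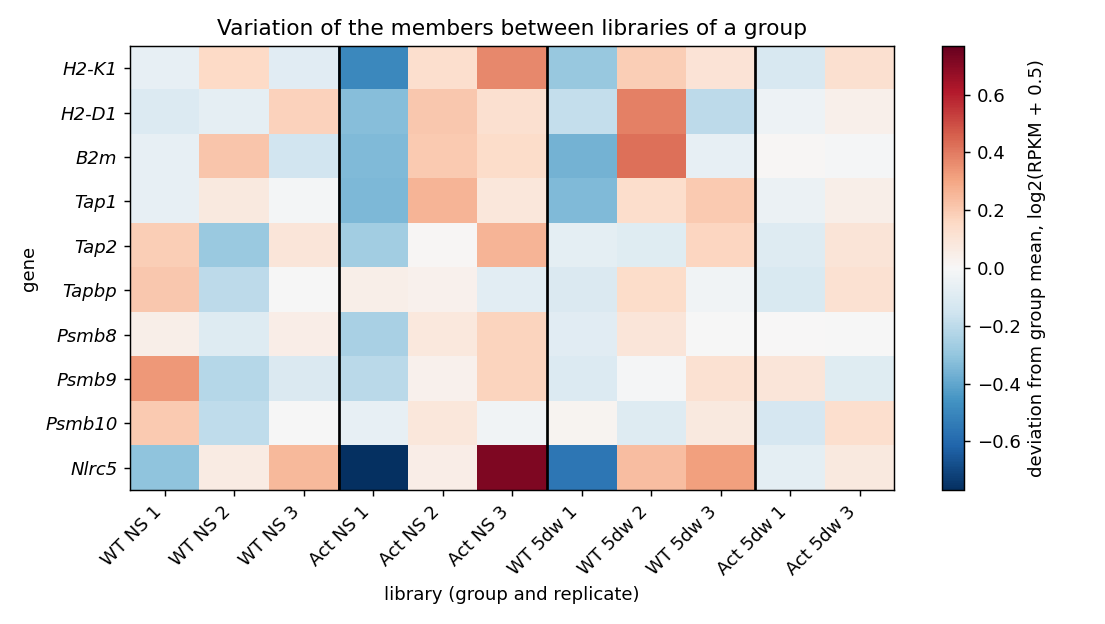
Deviation of log2(RPKM + 0.5) from the group mean (colour) for the 10 genes (rows) in the 11 libraries (columns), with black lines between groups. Act NS replicate 1 is low for most members, and its median deviation is -0.30.

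The other genes of the pathway were read from lists. Of the other class I heavy chain genes, 16 were tested, and 14 were called lower and 1 higher in WT and 13 lower in Act, where 48.8% and 36.5% of all genes were lower. After median-ratio scaling 8 were lower and 1 higher in WT and 12 lower in Act. H2-Q6 had the lowest WT value (log2FC -1.73, adjusted p = 0.000361), falling from 26.5 RPKM in WT NS to 7.77 in WT 5dw, and H2-T10 was the gene that rose (0.56, adjusted p = 0.0163), a count that went to 0 without WT 5dw replicate 2. Many of these genes are near copies, and 51.8% of the 31-base words of H2-Q6 and 64.2% of those of H2-T10 occur in other genes. Of the 5 distant class I-like genes tested, 4 fell in WT, among them Hfe, a regulator of iron uptake (-1.48, adjusted p = 0.000118), and Cd1d1, which presents lipids, rose (0.80, adjusted p = 0.00662). In Act 3 fell. Of all genes 48.8% were lower in WT and 36.5% in Act. After scaling 2 fell and 1 rose in each genotype. The shares of all genes were then 22.2% lower and 22.4% higher in WT and 20.8% lower and 19.9% higher in Act.

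Peptide loading and trimming genes did not share one direction. Of 16 tested, 2 rose and 4 fell in WT (9.45% and 48.8% of all genes) and 4 rose and 5 fell in Act (9.04% and 36.5% of all genes), and after scaling 9 rose and 1 fell in each genotype, where 22.4% of all genes in WT and 19.9% in Act were called higher. Sec61b, a subunit of the protein-conducting channel of the endoplasmic reticulum, rose in WT (0.74, adjusted p = 0.00402), and Tapbpl, a tapasin relative, fell (-0.67, adjusted p = 0.00132), a call lost after scaling (adjusted p = 0.102). The Act counts dropped to 1 higher and 1 lower without Act 5dw replicate 3, to 2 and 2 without Act 5dw replicate 1, and to 3 lower without Act NS replicate 2 or 3. None of the 14 constitutive proteasome core genes was called in either genotype, with 0 at an unadjusted p under 0.05 by limma, while scaling called 7 higher in WT and 4 in Act, against those same shares of 22.4% and 19.9% of all genes. Of 9 proteasome activator and assembly genes, Psme1 (-0.75, adjusted p = 0.00225) and Psme2 (-0.44, adjusted p = 0.0197), which form the interferon-inducible PA28 cap, were the 2 called lower in WT and also the 2 in Act, a smaller share than the 48.8% and 36.5% of all genes. After scaling neither was called in WT (-0.30, adjusted p = 0.0696, and 0.0085, adjusted p = 0.957), Psme1 kept its Act call (-0.63, adjusted p = 0.00495) and Psme2 did not (adjusted p = 0.597), and 2 other genes of this list were called higher in each genotype. The WT count of 2 was 1 without WT NS replicate 2 or 3 or WT 5dw replicate 2 or 3. The Act count of 2 was 1 with the replicate block, no filter or the compared groups alone, and without WT NS replicate 3, Act NS replicate 2 or 3, or any 1 library of WT 5dw.

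Transcription factors of class I genes were mostly lower in wounds, with 14 of 18 called lower in WT and 13 in Act (48.8% and 36.5% of all genes). After scaling 7 were lower and 2 higher in WT and 8 lower in Act (22.2% and 20.8% of all genes lower). Irf1, an interferon-induced activator, went from a mean of 93.2 RPKM in WT NS to 41.5 in WT 5dw (-1.14, adjusted p = 0.000578). Rfx5, part of the complex that binds class I and class II promoters, went from 3.81 to 1.88 RPKM (-0.85, adjusted p = 0.000527). Nfya, a CCAAT-binding subunit, had the lowest WT value (-1.35, adjusted p = 3.44e-05). In Act it was at -1.24, and the lowest value of the list was -1.50. Of 11 interferon receptor and signalling genes, Ifngr1 (-1.59, adjusted p = 1.22e-05), a chain of the interferon-gamma receptor, and Tyk2 (-0.53, adjusted p = 0.0479) fell in WT, and these and Ifnb1 fell in Act, against the same shares of all genes lower (48.8% and 36.5%). Ifnb1 stood at 3.34, 8.41 and 11.9 RPKM in Act NS and at 0.260 and 0.364 in Act 5dw, the latter from 4 and 7 recovered reads. After scaling Ifngr1 kept its call in both genotypes and Ifnb1 in Act, Tyk2 lost it in both (adjusted p = 0.618 and 0.193), and 2 genes in WT and 3 in Act were called higher. The WT count of 2 lower was also 1 under either other filter, quantile normalization, no trend or the compared groups alone, and without any 1 library of WT 5dw or Act NS or without WT NS replicate 3.

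Interferon response genes were read as well. Of 12 interferon-gamma response genes, 3 rose and 2 fell in WT (9.45% and 48.8% of all genes) and 1 rose and 9 fell in Act (9.04% and 36.5% of all genes). After scaling 4 rose and 0 fell in WT (22.4% and 22.2% of all genes) and 1 rose and 4 fell in Act (19.9% and 20.8% of all genes). With the replicate block and no scaling, 2 rose in Act. Without scaling, the WT count of 2 that fell was 1 without WT NS replicate 2 or WT 5dw replicate 1, and the Act count of 9 was 4 without Act NS replicate 2 and 3 without Act 5dw replicate 3. Cxcl9, a chemokine for T cells, rose in both (2.38, adjusted p = 0.00188, and 1.57, adjusted p = 0.0356), but the Act count of 1 gene that rose went to 0 without Act NS replicate 1 or 3, without Act 5dw replicate 1 or 3, or with no filter on low values. Of 14 type I interferon response genes, 2 rose and 1 fell in WT and 12 fell in Act, against the same shares of all genes. After scaling 4 rose and 0 fell in WT and 7 fell in Act (20.8% of all genes lower in Act). Without scaling, the Act count of 12 was lower without Act 5dw replicate 3, a fit that leaves 1 library in that group. Without WT 5dw replicate 2 the number that fell in WT was 3, and with the replicate block it was 2. The WT count of 2 that rose was 4 with the replicate block and 1 without WT NS replicate 1 or 3, without WT 5dw replicate 2 or 3, with no filter, with the filter of 5 RPKM or with the compared groups alone. Rsad2, an antiviral gene, rose in WT (0.98, adjusted p = 0.0320) and fell in Act (-1.37, adjusted p = 0.0148), the latter lost after scaling (-1.06, adjusted p = 0.0652). Between Act 5dw and WT 5dw all 14 lay below 0, with a median log2FC of -1.08, and 11 had an unadjusted p under 0.05, but none was called. Over all genes the median of this comparison was -0.04, and 386 of 11979 (3.22%) had an unadjusted p under 0.05. Class II genes were low, with sums over the 11 genes of 6.19 to 16.1 RPKM in every library, and 3 of 6 tested fell in each genotype, near the 48.8% of all genes in WT and against 36.5% in Act. The WT count was 1 after quantile normalization, and the filter of 5 RPKM left 0 in both. After scaling 2 rose and 2 fell in WT and 3 fell in Act.

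**Figure D5:**
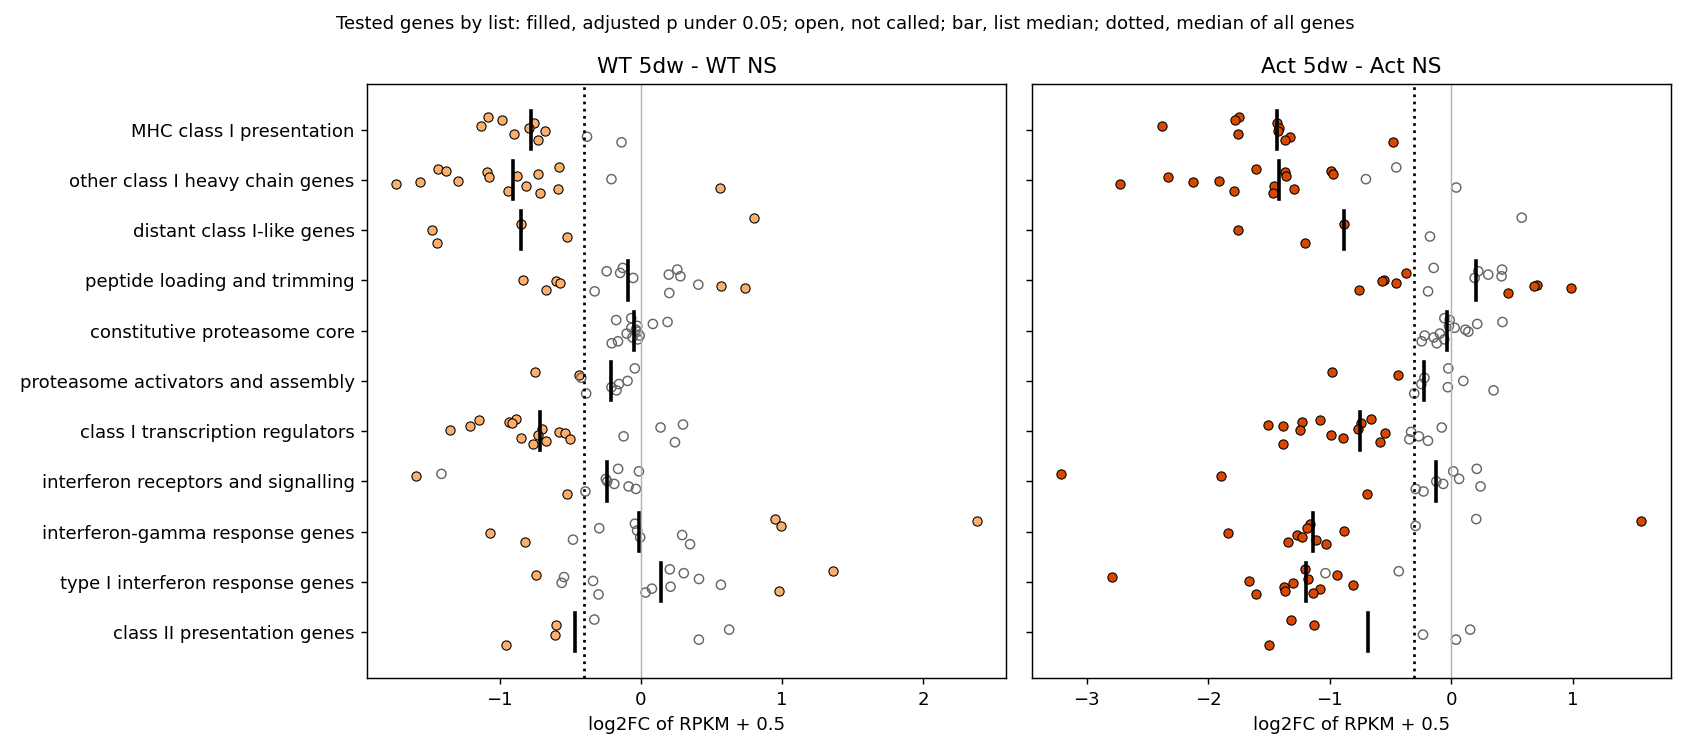
log2FC of RPKM + 0.5 between 5dw and NS (horizontal axes) for each tested gene by list, in WT (left) and Act (right), with filled points for adjusted p under 0.05, open points for genes not called, bars for list medians and a dotted line for the all-gene median. The class I presentation genes have medians of -0.77 and -1.43, and the constitutive proteasome core lies near 0 at -0.05 and -0.04.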

How the data were processed

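RNA from sorted CD140a+ fibroblasts was sequenced by the authors as poly-A selected, stranded libraries, and reads were mapped to GRCm38 in CLC Genomics Workbench. The deposited RPKM values were made by the authors per gene symbol, and whether counting used strand or how reads with several matches were placed is not given in sources used here. Tests used limma 3.58.1 in R 4.3.3 with a mean-variance trend on log2(RPKM + 0.5), for 11979 genes with at least 1 RPKM in at least 2 libraries, with 1 mean per group over all 11 libraries. Log2FC on this scale understate changes of low genes. Adjusted p-values are Benjamini-Hochberg, over all tested genes. The authors used the edgeR exact test, which needs counts and was not repeated on RPKM. Mapped reads were recovered from RPKM and exon lengths: with a tolerance of 0.03, 81.5% of values under 50 reads came out whole on average, so no count test was run.

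The members and gene lists were chosen with earlier results of these data known. Named genes of other lists were the highest and lowest called genes in WT plus a fixed set; the genes most like a member were the top 3 by correlation. Some further genes of lists were named after their values were seen. Same-numbered libraries deviated together between WT NS and WT 5dw (r of 0.188, 0.120 and 0.109 for replicates 1 to 3) and between WT NS and Act NS (0.554, 0.423 and 0.334), and not in every pair between Act NS and Act 5dw (0.0187 and 0.143 for replicates 1 and 3) or between WT 5dw and Act 5dw (-0.0777 and 0.189); the replicate block was an alternative. Other alternatives were pseudocounts of 0.1 and 1, no filter or a filter of 5 RPKM, median-ratio scaling, quantile normalization, no trend, the compared groups alone and leaving out each library. Scripts were tested on simulated data. The GAAA repeat was added to the motif search after the B2m promoter had been read. Promoters came from RefSeq and shared 31-base words from GENCODE M21 transcripts.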

Additional observations from a re-analysis of the deposited data

How the results depend on the processing

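Members called under the alternatives numbered 4 of 10 in WT after median-ratio scaling, against 8, and 6 to 9 when 1 library was left out. In Act they numbered 9 to 10 when 1 library was left out, and 0 in the genotype comparisons and the interaction throughout. With the replicate block 9 members were called in WT, Tap1 being added, and 10 in Act; it changed no other call of a member. Signs turned for Tap1 in WT (0.057 after median-ratio scaling) and for Tapbp in WT (0.32 after median-ratio scaling and 0.012 after quantile normalization). Between Act NS and WT NS, leaving out 1 library gave -0.033 to 0.24 for Tap2, below 0 without WT NS replicate 2 or Act NS replicate 3, and -0.092 to 0.11 for Psmb10, below 0 when replicate 2 of WT NS or of Act NS was omitted. The subunit ratios with the replicate block of 5 pairs were -0.99, -1.35 and -0.92 (exact p = 0.0625 each). Leaving out 1 library gave -1.17 to -0.96 for Psmb8 over Psmb5, -1.63 to -1.27 for Psmb9 over Psmb6 and -1.08 to -0.87 for Psmb10 over Psmb7. The filter of 5 RPKM left Nlrc5 and Psmb9 untested. Counts in the other lists were run under the same settings, a choice made after seeing the data, and other heavy chain genes called lower ranged from 8 to 14 in WT and 11 to 14 in Act. Act 5dw had 2 libraries, and Nlrc5 rested on as few as 64 reads in 1 of them. The cause of these changes was not tested.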
